A study of Mus musculus with 12 samples.

Results

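Hippocampal RNA of 12 mice from 2 Shank2 deletion lines was used to describe the genes of the cytosolic ribosomal proteins. The genes were chosen by symbol: every Rpl or Rps symbol followed by a number, Rplp0 to Rplp2, and Rpsa. S6 kinases, binding proteins, pseudogenes, paralogues with a suffix and the Rps3a copies were left out. This rule found 76 of the 24590 genes listed in any mouse, 46 of the large and 30 of the small subunit. Fau, which encodes a ribosomal protein fused to a ubiquitin-like protein, has another name and is not among the 76.

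Shank2 encodes a scaffold of excitatory synapses. The exon 7 knockout mice (mice KO969, KO990 and KO994) lack exon 7 of Shank2, and their wild-type littermates were mice WT628, WT993 and WT999. The exon 6-7 knockout mice (mice KO776, KO777 and KO864) lack exons 6 and 7, and their wild-type littermates were mice WT778, WT809 and WT865. All were males with C57BL/6J and C57BL/6N in their background, with no drug treatment named in the labels, and an age of 8 to 15 weeks is given for the behavioural tests. RNA came from hippocampi, so it holds all cell types of that tissue, and fewer cells of a type cannot be told apart from less RNA per cell. Each of the 4 groups has 3 separate animals. The deposited values are FPKM, fragments per kilobase of transcript and per fixed number of mapped fragments, in which gene length is divided out. They were scaled between libraries by the median of ratios and are called scaled FPKM. Read totals are not given, so no counting error can be attached to a value.

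The ribosome joins amino acids in the order set by a messenger RNA. Its small subunit reads the codons, and its large subunit forms the peptide bonds. Most ribosomal proteins are needed in about equal number. Most mRNAs of ribosomal proteins begin with a C followed by a run of pyrimidines, the terminal oligopyrimidine (TOP) motif. Through this motif translation of these mRNAs follows TOR kinase activity. In neurons these mRNAs are found in cell bodies and also in dendrites and axons.

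The start of 7 of these genes is shown, since a run of pyrimidines at the start is the known mark of these mRNAs. The sequences are RefSeq promoters on build GRCm38.p6, from 35 bases before the start to 15 bases from it onward, 5′ to 3′ on the strand of the gene. Capitals mark the run of C or T that begins at the annotated start. They are Rps6 at chr4:86857353-86857402 (minus strand), Rplp2 at chr7:141447616-141447665 (plus strand), Rpl38 at chr11:114668545-114668594 (plus strand), Rps15a at chr7:118116133-118116182 (minus strand), Rpl15 at chr14:18270972-18271021 (minus strand), Rps21 at chr2:180257344-180257393 (plus strand) and Rps27 at chr3:90213634-90213683 (minus strand).
Rps6: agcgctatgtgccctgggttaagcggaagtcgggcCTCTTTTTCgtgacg
Rplp2: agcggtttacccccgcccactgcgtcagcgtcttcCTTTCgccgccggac
Rpl38: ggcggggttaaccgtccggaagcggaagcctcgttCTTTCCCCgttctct
Rps15a: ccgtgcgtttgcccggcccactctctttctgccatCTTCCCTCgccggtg
Rpl15: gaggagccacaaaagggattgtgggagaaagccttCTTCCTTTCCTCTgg
Rps21: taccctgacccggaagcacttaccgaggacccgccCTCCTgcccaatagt
Rps27: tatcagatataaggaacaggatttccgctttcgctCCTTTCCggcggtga

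A promoter was found for 56 of the 76 genes, with 66 promoters in all. A C at the annotated start followed by at least 4 of C or T was present in 13 of the 66 (19.7%), against 2.51% of all 32851 promoters. The letters CCGGAAG, which hold the core of the sites bound by Ets factors, occurred on either strand of the window of 250 bases before to 50 bases after the start in 36.4% of the 66 and in 8.86% of all promoters. GGGCGG, the core of an Sp1 site, occurred in 60.6% and 35.7%, and TATAAA, the TATA box, in 9.09% and 13.6%. These are matches of letters to annotated starts, not measured start sites. Among the genes with no matched entry were Rpl3, Rpl7, Rpl8, Rpl17, Rpl29, Rpl30, Rplp1, Rps14, Rps27a and Rps29. The 7 genes shown all have the run, and their listed levels were far apart, with means over the 12 mice of 0.917 scaled FPKM for Rps27 and 332 for Rps15a. The value for Rps27 stands beside its retrotransposed copy Rps27rt, which averaged 208.5, so its own level is uncertain. Rps6 averaged 3.93, and the copies that share its sequence summed to 82.0.

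Before the results, 3 facts of the libraries are needed. First, 4 libraries, 1 in each group (mice KO969, WT628, KO776 and WT778), list no value for the gene ENSMUSG00000095746, which stood at 205 to 439 scaled FPKM in the other 8; they are called set A. Second, exon 7 mice had 10.3 to 14.3% of their FPKM in mitochondrial transcripts, and exon 6-7 mice 6.22 to 7.39%. Last, Shank2 levels in exon 6-7 mice were 6.15, 6.22 and 7.02 scaled FPKM in knockouts, against 13.8, 14.4 and 14.9 in wild types (log2 fold change −1.04, SE 0.119, limma adjusted p = 0.0111). That call was lost when mouse WT778, WT865 or KO776 was left out (adjusted p = 0.0858, 0.105 and 0.0976; range over all alternatives 0.000163 to 0.105). Exon 7 knockouts had Shank2 levels of 33.2, 43.5 and 44.6, against 36.0, 42.4 and 44.1 in exon 7 wild types. A value over the whole gene does not check the loss of a single exon. All 10 markers of hippocampal neurons on the list used here were present in every mouse.

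The 76 genes lie on many chromosomes. In the GENCODE M21 annotation on GRCm38, Rpl41 (ENSMUSG00000093674) at chr10:128548114-128549305, Rplp1 (ENSMUSG00000007892) at chr9:61913284-61914542, Rps15 (ENSMUSG00000063457) at chr10:80292453-80294114, Rpl5 (ENSMUSG00000058558) at chr5:107900502-107909005 and Rpl11 (ENSMUSG00000059291) at chr4:136028265-136053428 are among those the results turn on, and each value is for the whole gene. The family covered a wide range of levels. Over the 12 mice their median was 105 scaled FPKM, 41 had a mean over 100 and 8 had a mean under 10. The highest were Rplp1, an acidic protein of the stalk that recruits translation factors (953), Rps15, needed for export of the small subunit from the nucleus (899), and Rpl41, a very short basic peptide (706). The lowest were Rps27 (0.917), Rps12 (1.14) and Rpl17 (2.54). Each was below the summed level of the copies that share its sequence (208.5, 1.29 and 17.3), described below. Rps27, a small-subunit protein with a zinc finger, was unlisted in 5 of the 12 mice and below the filter of a mean of 1 scaled FPKM, so that 75 genes were tested. Rps12 was unlisted in mouse WT999, and the other 74 genes were listed in every mouse. The order of levels was nearly the same in all groups, with a Spearman rho across the genes of 0.978 between the wild types of the lines, 0.997 between exon 7 knockout and wild-type means, and 0.999 between exon 6-7 knockout and wild-type means. These are descriptions across genes, which are not independent replicates.

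Together the 76 genes took up 1.43, 1.57 and 1.64% of the summed FPKM in exon 7 knockout mice and 1.34, 1.55 and 1.56% in exon 7 wild types. They took up 3.20, 3.38 and 3.46% in exon 6-7 knockout mice and 3.37, 3.59 and 3.64% in exon 6-7 wild types. In this share the lines do not overlap, while knockout and wild-type mice overlap within each line. Summed as scaled FPKM, the exon 6-7 knockouts (16433, 17573 and 17883) lay narrowly below their wild types (17907, 19034 and 20104). The exon 7 sums overlapped, with 6851, 7344 and 7561 in knockouts against 6697, 7366 and 7495 in wild types. Large-subunit genes made up 0.825 ± 0.0726% in exon 7 wild types, against 2.07 ± 0.0892% in exon 6-7 wild types, and small-subunit genes 0.657 ± 0.0552% against 1.47 ± 0.0519% (SD, n = 3 each).

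**Figure D1:**
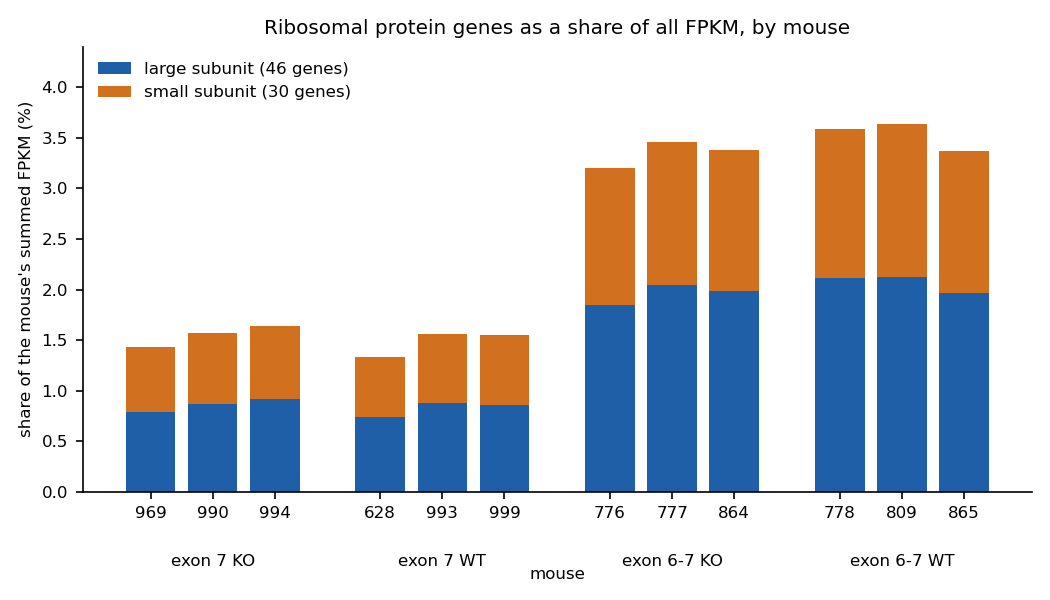
Share of each mouse's summed deposited FPKM (y axis, %) taken up by the 46 large-subunit and 30 small-subunit genes, 1 stacked bar per mouse (x axis, mouse number and group). Every exon 7 mouse lies between 1.34 and 1.64%, and every exon 6-7 mouse between 3.20 and 3.64%.

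Nearly all of these genes differed between the wild-type mice of the lines. In exon 7 wild types all 75 tested genes had a lower fitted level than in exon 6-7 wild types, with a median log2 fold change of −1.16, a 2.24-fold lower level, and 72 passed the test (limma, two-sided, Benjamini-Hochberg adjusted p under 0.05). Of all 14212 genes tested, 67.1% were called, 33.1% lower and 34.0% higher, and 50.2% had values below 0 and 49.8% above it. The median was −1.23 for large-subunit and −1.11 for small-subunit genes. The 3 exon 7 wild types lay below all 3 exon 6-7 wild types for 72 of the 75, against 34.5% of all genes. No sample links the lines, so that line, cohort and library making cannot be told apart in any of these values.

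The mRNAs of the stalk proteins were lower in exon 7 wild types by unequal amounts. Rplp1 had 356, 381 and 445 scaled FPKM in exon 7 wild types, against 1383, 1568 and 1915 in exon 6-7 wild types (log2 fold change −2.03, SE 0.135, adjusted p = 1.4e-07). Rplp2, its partner, had 69.9, 90.2 and 102 against 292, 343 and 372 (−1.94, SE 0.197, adjusted p = 3.68e-06). Rplp0, which anchors both on the large subunit, had 125, 148 and 165 against 278, 295 and 321 (−1.03, SE 0.117, adjusted p = 9.3e-06). The groups do not overlap for any of the 3 genes. The line difference of Rplp0 was smaller than those of its partners on the log2 scale, but the genes were not tested against each other.

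Small-subunit genes were lower in exon 7 wild types by unlike amounts. Rps19, mutated in human Diamond-Blackfan anaemia, was at 26.5, 35.5 and 43.6 scaled FPKM in exon 7 wild types, against 154, 157 and 214 in exon 6-7 wild types (log2 fold change −2.29, SE 0.179, adjusted p = 4.73e-07). Rps14, lost from 1 chromosome copy in a human myelodysplastic syndrome, was at 108, 114 and 125 against 338, 374 and 432 (−1.70, SE 0.119). Rpsa, a small-subunit protein also known as a laminin receptor precursor, was at 109, 115 and 116 against 217, 232 and 245 (−1.02, SE 0.0787). Rps6, the small-subunit protein that S6 kinases phosphorylate, was at 1.86, 2.33 and 2.34 against 4.75, 5.17 and 7.50 (−1.08, SE 0.166). Rps27a, made as a fusion with ubiquitin, was at 5.96, 6.23 and 6.37 against 10.5, 11.4 and 13.1 (−0.81, SE 0.108). In none of these genes did the wild types of the lines overlap, and each passed the test (adjusted p between 2.06e-07 and 0.000104).

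Among large-subunit genes, Rpl41 was at 252, 272 and 275 scaled FPKM in exon 7 wild types, against 1004, 1242 and 1324 in exon 6-7 wild types (log2 fold change −2.15, SE 0.104, adjusted p = 3.71e-08). It had the smallest p of the 75. Rpl37a was at 32.7, 33.5 and 36.2 against 122, 154 and 155 (−2.03, SE 0.108). Rpl13a, which human monocytes release from ribosomes during interferon gamma treatment, was at 168, 248 and 264 against 619, 759.8 and 961 (−1.78, SE 0.232). Rpl10, which joins the large subunit late in its assembly and carries variants in some human families with autism, was at 6.38, 8.24 and 9.65 against 13.3, 13.9 and 16.2 (−0.78, SE 0.156). Rpl22, needed for T cell development in mice, was at 85.4, 102 and 104 against 155, 156 and 160.0 (−0.69, SE 0.116). The wild types of the lines did not overlap for any of these 5 genes, and all 5 passed (adjusted p between 3.71e-08 and 0.000833).

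Others among the genes of smallest p between the lines were Rpl19, Rpl8, Rpl18, Rpl26, Rpl34 and Rps21, with log2 fold changes between −1.74 and −1.25 (adjusted p between 5.25e-08 and 9.65e-08). Rpl8, a large-subunit protein close to the peptidyl transferase centre, was at 147.9, 166 and 174.5 scaled FPKM in exon 7 wild types, against 490.9, 556 and 597 in exon 6-7 wild types (−1.74, SE 0.101). Rps21, whose start is shown above, was at 162, 177 and 189 against 439.6, 519 and 553 (−1.51, SE 0.0940). Rpl26, a large-subunit protein near the exit of the peptide tunnel, was at 234, 253 and 281 against 626, 659.8 and 694.5 (−1.37, SE 0.0823). The groups do not overlap for any of these genes.

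Rpl5 and Rpl11 bind the 5S rRNA and, when free of the ribosome, hold back the p53 regulator Mdm2. Taken without their copies elsewhere in the genome, they did not give the same result. Rpl11 was at 27.6, 30.1 and 36.2 scaled FPKM in exon 7 wild types, against 61.8, 63.5 and 64.8 in exon 6-7 wild types (log2 fold change −1.0, SE 0.0967, adjusted p = 2.41e-06). Rpl5 was at 17.0, 18.0 and 23.2 against 16.6, 20.7 and 26.5, groups that overlap (−0.12, SE 0.189, 95% interval −0.53 to 0.30, adjusted p = 0.607). The 2 other genes that did not pass were Rpl17 (−0.29, SE 0.126, adjusted p = 0.0572) and Rpl29 (−0.88, SE 1.28, adjusted p = 0.561). Rpl29 was at 58.3, 71.2 and 79.2 against 100.1, 109 and 193, and its wide error comes with the spread that mouse KO776 adds to the shared fit, described with the knockouts. Without mouse KO776 Rpl29 passed (−0.88, adjusted p = 0.00386; range over all alternatives 0.00386 to 0.96).

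**Figure D2:**
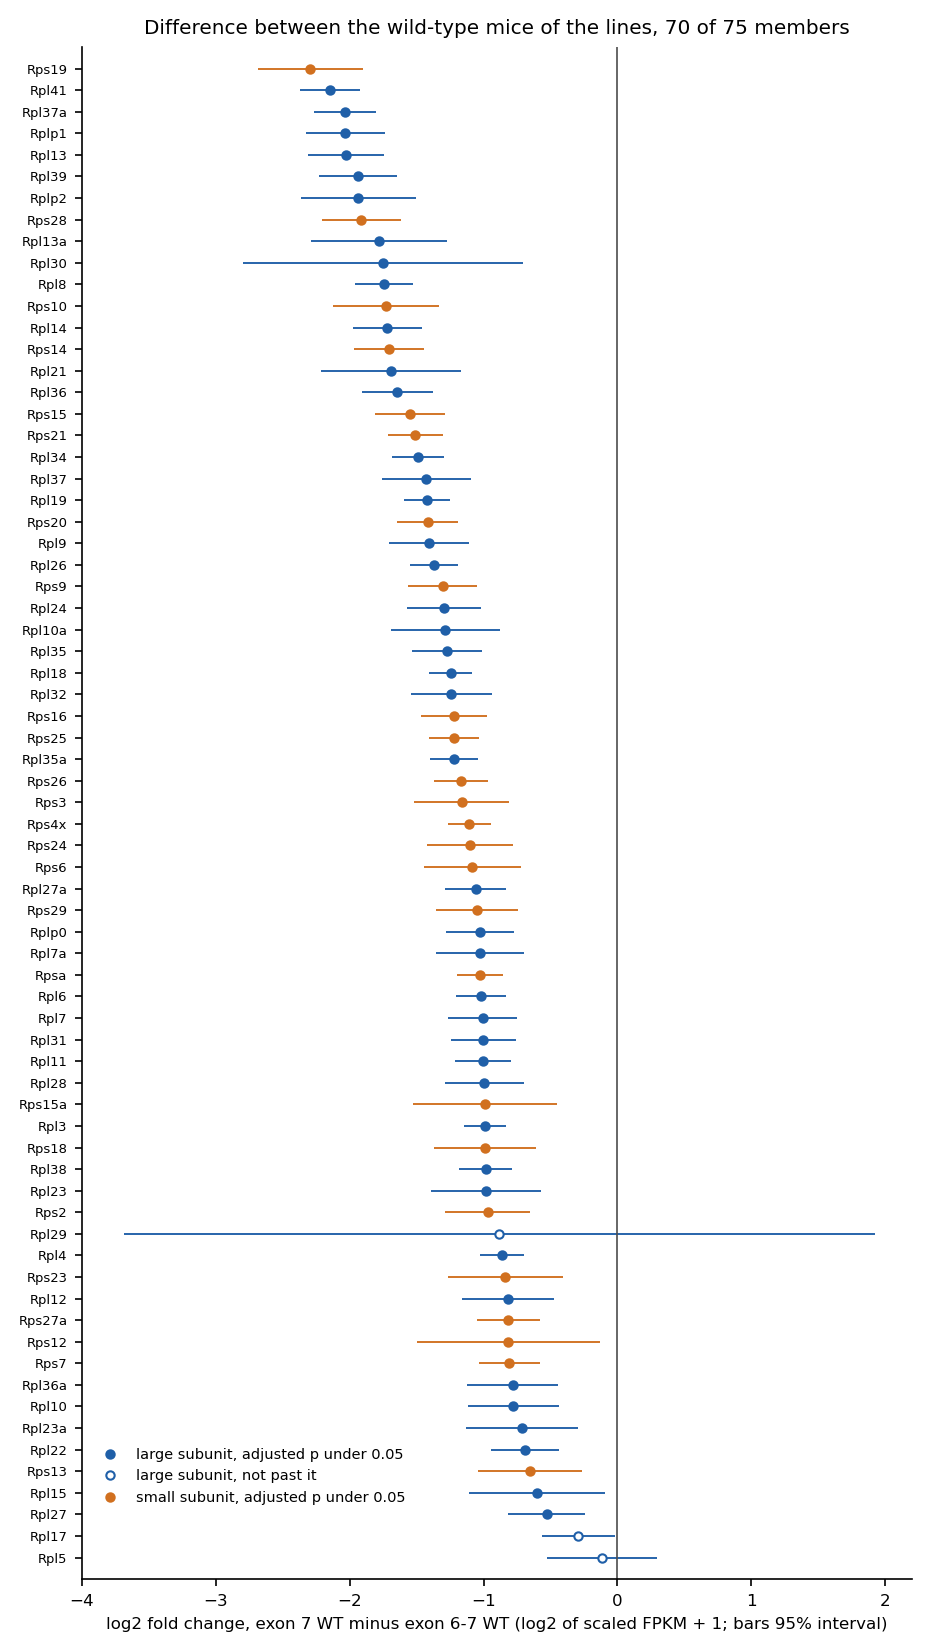
Log2 fold change of 70 of the 75 tested genes, exon 7 wild type minus exon 6-7 wild type (x axis, on log2 of scaled FPKM + 1), with 95% intervals; genes on the y axis from lowest to highest. Points are limma estimates from 3 mice a group. All lie below 0, from Rps19 at −2.29 to Rpl5 at −0.12, and the open points are the 3 genes not past the threshold.

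The knockout mice of the lines showed a like difference, in a comparison chosen after the wild types had been seen. Against exon 6-7 knockouts, 70 of the 75 genes were called lower in exon 7 knockouts (30.3% of all genes) and none higher (31.5% of all genes), with a median log2 fold change of −1.02. Values were below 0 for 74 genes, against 50.2% of all genes, and above it for 1, against 49.8%. Rpl41 was at 272, 291 and 302 scaled FPKM in exon 7 knockouts, against 1009, 1111 and 1118 in exon 6-7 knockouts (−1.90, SE 0.104, adjusted p = 1.05e-07). Rpl37a was at 32.2, 36.5 and 40.4 against 128, 129 and 131 (−1.80, SE 0.108). The only gene with a fitted value above 0 was Rpl29 (0.93, SE 1.28), which was at −1.25 without mouse KO776.

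Other measures moved with the line. Over the 14053 tested genes with a length, the log2 difference between the wild types rose with transcript length (Spearman rho 0.528) and fell with GC content (rho −0.401). The 75 tested ribosomal genes had a median length of 712 bases, against 2085 for all genes tested, and a median GC content of 52.1%, against 51.0%. After correction for length and GC content, the median over the 75 genes was −0.80. The marker lists of cell types were not of 1 direction between the lines. The summed level of 10 markers of hippocampal neurons was 1602 to 2012 scaled FPKM in exon 7 wild types, against 2268 to 2370 in exon 6-7 wild types. In exon 6-7 wild types most of it is Nrgn, which was at 637 ± 96.1 in exon 7 against 1521 ± 100.4 in exon 6-7 wild types. Camk2a was above Nrgn in exon 7 wild types and went the other way (872 ± 124.9 against 513 ± 52.9; SD, n = 3 each). Of the 10 neuronal markers 5 were called higher and 4 lower, with a median log2 fold change of 0.04. The microglial sum was 171 to 191 against 275 to 318, with 7 of 10 markers called lower and 1 higher, and the oligodendrocyte sum was 5351 to 5512 against 5693 to 7058, with the same counts. The astrocyte sum was 1289 to 1336 against 1199 to 1597, with 6 of 10 called higher and 4 lower (median 0.47). The endothelial sum was 113 to 127 against 116 to 143, although 5 of 8 markers were called higher and 2 lower (median 0.64). Meningeal markers summed to 129 to 138 against 116 to 191 (2 of 10 called higher, 1 lower), and blood markers to 101 to 290.4 against 277 to 539 (4 of 5 tested called lower, none higher). Choroid plexus markers summed to 1448 to 1753 against 57.9 to 8665, the lowest in mouse WT865 (2 of 10 called higher, 1 lower). No marker on these lists was at 0 in all mice, and the part of cell types in the line difference was not tested.

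In the exon 6-7 line no ribosomal gene passed the test for the knockout (0 of 75, limma), where 0.0141% of all genes did. An unadjusted p under 0.05 was found for 4 of the 75, against 583 of all 14212 genes, a like share. Their fitted values lay mostly on one side. They were below 0 for 70 of the 75 genes, against 50.6% of all genes, and above it for 5, against 49.4%, with a median log2 fold change of −0.13, against −0.00 over all genes. The median was −0.12 for large-subunit and −0.13 for small-subunit genes. All 3 knockouts lay below all 3 wild types for 9 genes, among them Rps15, Rpl18, Rpl19, Rpl38 and Rpl11, or 12.0% of the 75, against 6.3% of all genes, and above them for none, against 5.02% of all genes. The genes share libraries, so the 75 values are not independent of each other.

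The 4 genes of smallest p in that line are given with their values, as not passing. Rps16, a small-subunit protein near the decoding site, was at 80.1, 89.1 and 107 scaled FPKM in knockout mice, against 107, 118 and 119.5 in wild-type mice (log2 fold change −0.32, SE 0.113, unadjusted p = 0.0147, adjusted p = 0.9998). Rpl19 was at 193, 198 and 201 against 225, 227 and 236 (−0.21, SE 0.0797, unadjusted p = 0.0203). Rpl11 was at 52.2, 52.3 and 54.1 against 61.8, 63.5 and 64.8 (−0.26, SE 0.0967, unadjusted p = 0.0213). Rpl38, which mouse embryos need for translation of some Hox mRNAs, was at 137, 139 and 151 against 159.9, 163 and 172 (−0.21, SE 0.0924, unadjusted p = 0.0418). For Rpl19, Rpl11 and Rpl38 the groups do not overlap, although each difference is small beside those between the lines.

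The stalk and the other genes of a panel of 14 stood as the family did. The fitted values were below 0 for 13 of the 14, the exception being Rps27a. Rplp1 was at 1288, 1412 and 1549 scaled FPKM in exon 6-7 knockouts, against 1383, 1568 and 1915 in wild types. Rpl41 was at 1009, 1111 and 1118 against 1004, 1242 and 1324, and Rps19 at 128, 154 and 178 against 154, 157 and 214. The groups overlap for these 3 genes. Rps6 (4.50, 5.32 and 5.94 against 4.75, 5.17 and 7.50) and Rpl5 (18.9, 19.9 and 20.7 against 16.6, 20.7 and 26.5) also overlapped.

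The 5 genes above 0 in that line were Rps27a, Rpl27, Rpl15, Rps13 and Rps20, with log2 fold changes of 0.08, 0.10, 0.11, 0.06 and 0.02 and overlapping groups. Rps13 was at 3.60, 4.47 and 4.95 scaled FPKM in knockout mice, against 3.53, 4.34 and 4.44 in wild-type mice. The lowest fitted value was that of Rpl29, and it rests on 1 mouse. Rpl29, a large-subunit protein that also binds heparan sulphate, was at 0.974 in mouse KO776 and at 172 and 199 in the other knockouts, against 100.1, 109 and 193 in wild-type mice. Its log2 fold change was −1.66 (SE 1.28) with mouse KO776 and 0.53 without it.

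The median in the exon 6-7 line varied with the libraries and the scaling used. It was −0.18 within set A and −0.08 within the other 8 libraries, and it ranged from −0.15 to −0.07 when each mouse in turn was left out, with −0.07 without mouse WT809 and −0.08 without mouse KO776. With quantile normalization it was −0.03. Over all genes the knockout effect in this line rose with transcript length (Spearman rho 0.296) and fell with GC content (rho −0.271), and with those trends removed the median was −0.08. No marker gene of another cell type passed the test in this line. All 10 oligodendrocyte markers had values below 0 (median −0.38, 8 with an unadjusted p under 0.05), and their sum was 4974 to 5103 scaled FPKM in exon 6-7 knockouts, against 5693 to 7058 in wild types. All 10 microglial markers were also below 0 (median −0.17, 2 with an unadjusted p under 0.05), with sums of 245 to 281 against 275 to 318. The neuronal sum was 2089 to 2121 against 2268 to 2370, mostly through Nrgn (1307 ± 55.2 against 1521 ± 100.4; SD, n = 3 each), while over the 10 neuronal markers the median was −0.06, with 7 below 0 and 3 above. The sums of astrocytes (1155 to 1411 against 1199 to 1597), endothelium (103 to 131 against 116 to 143), meninges (176 to 214 against 116 to 191), blood (399.8 to 504 against 277 to 539) and choroid plexus (6784 to 8461 against 57.9 to 8665) overlapped. The microglial sums overlapped too. All 10 choroid plexus markers had values above 0 (median 1.41, 5 with an unadjusted p under 0.05). Of the meningeal markers 9 of 10 were above 0 (median 0.26, 4 with an unadjusted p under 0.05). All 5 tested blood markers were above 0 (median 0.15). Astrocyte markers (6 below 0, 4 above) and endothelial markers (5 below, 3 above) went both ways. All listed markers of neurons and oligodendrocytes were detected in every mouse, and the part of these cell types in the shift was not tested.

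In the exon 7 line no ribosomal gene passed either (0 of 75, limma), and 0.0% of all genes did. An unadjusted p under 0.05 was found for 3 of the 75 and for 492 of all 14212 genes. The median log2 fold change was 0.02, against −0.01 over all genes, with 45 genes above 0, against 46.7% of all genes, and 30 below, against 53.3%. Knockouts lay above all wild types for Rps26, Rpl3 and Rps27a (3 of 75, or 4%, against 3.27% of all genes) and below them for none, against 3.76% of all genes. Rps27a was at 7.10, 7.68 and 9.21 scaled FPKM in knockout mice, against 5.96, 6.23 and 6.37 in wild-type mice (log2 fold change 0.32, SE 0.108, unadjusted p = 0.0126, adjusted p = 0.9999). Rpl11 was at 35.3, 38.7 and 40.1 against 27.6, 30.1 and 36.2 (0.28, SE 0.0967, unadjusted p = 0.0138). Rps29, a small-subunit protein with a zinc-binding motif, was at 15.4, 15.5 and 20.9 against 19.9, 21.4 and 23.2 (−0.31, SE 0.140, unadjusted p = 0.0461). The groups overlap for Rpl11 and Rps29.

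Of the panel of 14, 9 were above 0 and 5 below in the exon 7 line. Rplp1 was at 332, 399 and 405 scaled FPKM in knockout mice, against 356, 381 and 445 in wild-type mice, and Rplp2 at 73.7, 105 and 118 against 69.9, 90.2 and 102. Rps19 was at 37.5, 39.7 and 40.7 against 26.5, 35.5 and 43.6, and Rps14 at 111, 125 and 132 against 108, 114 and 125. All of these groups overlap.

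Others among the genes of smallest p in the exon 7 line were Rps28 (log2 fold change 0.25) and Rpl31 (0.19) above 0, and Rpl27a (−0.17), Rpl30 (−0.75), Rpl12 (−0.23) and Rpl5 (−0.16) below it, none of them past the threshold. Within set A Rps28 was at −0.070 and Rpl31 at 0.0093. Rpl30 had the lowest fitted value through 1 mouse: it was at 10.3 scaled FPKM in mouse KO990 and at 57.9 and 61.6 in the other knockouts, against 55.5, 56.7 and 60.1 in wild-type mice. Without mouse KO990 its log2 fold change was 0.05. In this line the oligodendrocyte sum was 4816 to 5144 in knockouts, against 5351 to 5512 in wild types, with 10 of 10 markers below 0 (median −0.08). The meningeal sum was 147 to 158 against 129 to 138, with 9 of 10 above 0. The blood sum was 255 to 391 against 101 to 290.4, with 5 of 5 tested markers above 0 (median 0.73, 2 with an unadjusted p under 0.05). The choroid plexus sum was 1690 to 2329 against 1448 to 1753, with 9 of 10 above 0 (median 0.30). Of the other lists, 8 of 10 microglial and 6 of 8 endothelial markers were below 0, and 7 of 10 astrocyte markers above it. The neuronal sum was 1691 to 2109.98 against 1602 to 2012, with 6 of 10 above 0. None of these markers passed the test, and their part in the values above was not tested.

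**Figure D3:**
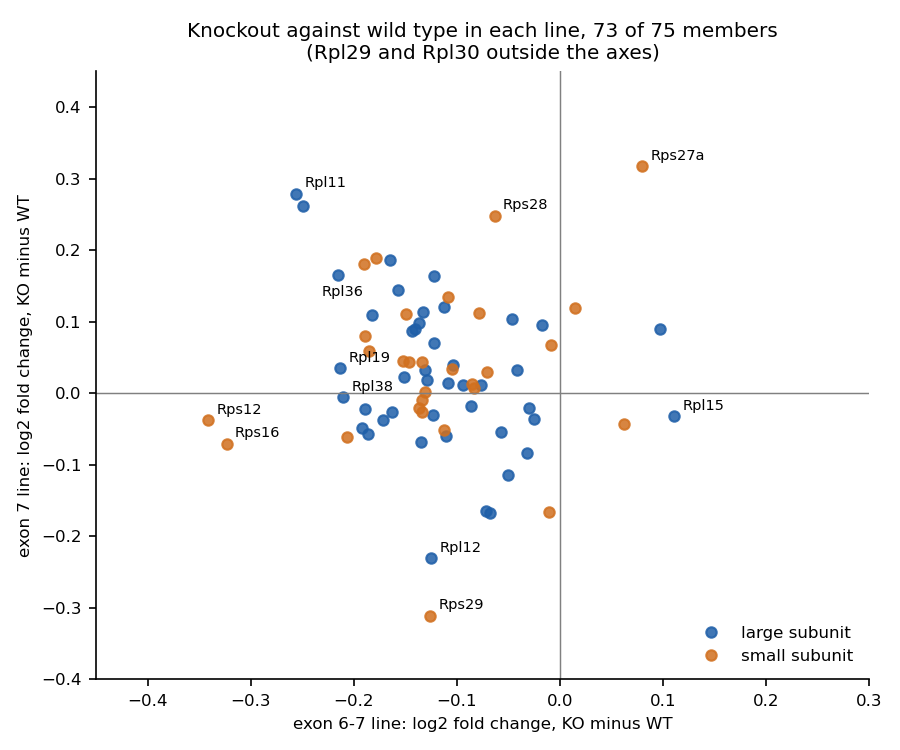
Log2 fold change of knockout minus wild type in the exon 6-7 line (x axis) and in the exon 7 line (y axis) for 73 genes, 1 point each; Rpl29 (−1.66 in the exon 6-7 line) and Rpl30 (−0.75 in the exon 7 line) lie outside the axes. Most points lie left of 0 on the x axis and on both sides of 0 on the y axis, and none passed the test in either line.

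The difference between the knockout effects was tested directly, as the exon 6-7 effect minus the exon 7 effect. No ribosomal gene passed (0 of 75, limma), against 0.00704% of all genes. An unadjusted p under 0.05 was found for 5 of the 75 and for 551 of all 14212 genes. The median difference was −0.14 and 63 genes were below 0, against 48.8% of all genes, and 12 above it, against 51.2%. Rpl11 had the smallest p: the effect was −0.26 in exon 6-7 mice and 0.28 in exon 7 mice, a difference of −0.54 (SE 0.137, 95% interval −0.83 to −0.24, unadjusted p = 0.0021, adjusted p = 0.9998). Rpl3 (−0.24), Rpl31 (−0.35), Rpl36 (−0.38) and Rpl19 (−0.25) were the next below 0, and Rpl30 (0.69), Rps29 (0.19), Rpl27a (0.10), Rps23 (0.16) and Rpl12 (0.11) had the smallest p above it. Summed with the copies that share its sequence, Rpl11 was at 263 ± 4.96 in exon 6-7 knockouts, against 303 ± 19.5 in exon 6-7 wild types. In the exon 7 line this sum was 142 ± 13.4 against 136 ± 12.4 (SD, n = 3 each). Over all alternatives the difference for Rpl11 ranged from −0.71 to −0.26. Averaged over both lines, the knockout effect passed for no ribosomal gene (0 of 75, limma), against 0.0141% of all genes. An unadjusted p under 0.05 was found for 3 of the 75 (Rps27a at 0.20, Rps16 at −0.20 and Rps29 at −0.22) and for 516 of all 14212 genes. Over all alternatives Rps27a ranged from 0.0051 to 0.26, Rps16 from −0.25 to −0.14 and Rps29 from −0.40 to −0.11. The median was −0.04 (−0.02 without mouse WT809 or KO776, −0.00051 with quantile normalization, and 0.0054 rescaled to TPM, where that of all genes was 0.045), and 58 genes were below 0, against 52.5% of all genes.

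The values depend on how reads that fit several places were shared out, a step not stated in these sources. Ribosomal protein genes have many processed copies in the genome, 173 of them listed under names ending in -ps. Of the 50-base windows of their transcripts, a median of 34.96% also occurred in another transcript, with 21 genes at 50% or more and 17 under 20%. For 48 genes, copies that code for no protein (or, for Rps27, its retrotransposed copy Rps27rt) share at least 20% of the windows, and in 23 of the 48 the copies had a higher summed level than the gene. The low levels of some members thus stand beside copies with high ones, and the level of such a gene is uncertain.

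Rps27 averaged 0.917 scaled FPKM over the 12 mice and Rps27rt 208.5. Rps27rt was at 97.4, 115 and 124 in exon 7 wild types, against 304, 308 and 371 in exon 6-7 wild types. Rps6 made up 3.37 ± 0.692% of its sum with 6 copies in exon 7 wild types and 5.18 ± 1.28% in exon 6-7 wild types (SD, n = 3 each); 1 copy, Rps6-ps4, shares 84.6% of its windows and averaged 80.8. Rps13 (29.3 for its copies, 3.22 for the gene) and Rps29 (521 and 31.5) were likewise below their copies. Rpl17 made up 24.6 ± 1.86% of its sum in exon 7 wild types, against 9.45 ± 1.66% in exon 6-7 wild types, and Rpl5 30.3 ± 1.76% against 19.5 ± 4.03%.

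The results for Rpl17 and Rpl5 between the lines changed with the copies. Summed with the copies that share their sequence, Rpl17 was at 9.11 ± 1.49 in exon 7 wild types, against 31.7 ± 3.87 in exon 6-7 wild types (log2 fold change −1.70, adjusted p = 3.23e-07; range over all alternatives 3.2e-07 to 0.251). Rpl5 with its copies was at 63.9 ± 7.11 against 109 ± 6.05 (−0.77, adjusted p = 3.37e-05; range 3.37e-05 to 0.912). Both were then past the threshold. Over all 76 genes summed in this way the median between the wild types was −1.30. Over the 17 genes that share under 20% of their windows it was −1.42, and all 17 were called lower.

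**Figure D4:**
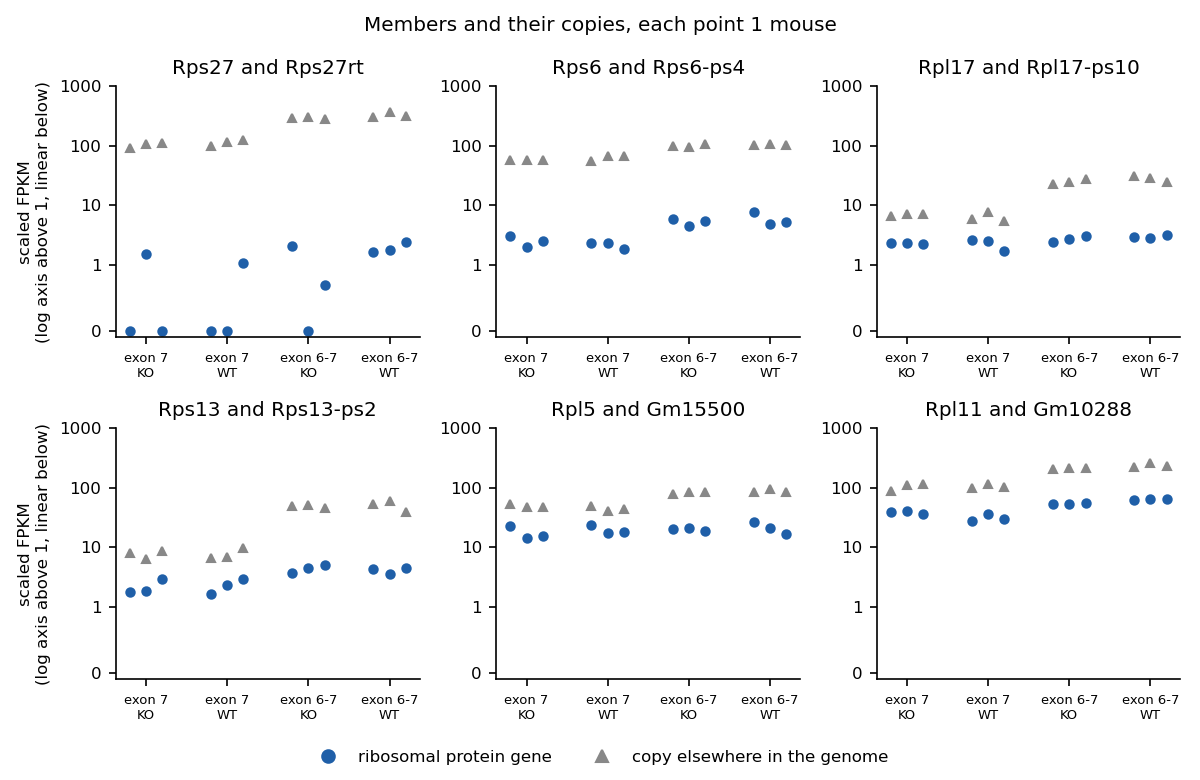
Scaled FPKM (y axis, log scale above 1 and linear below) of 6 ribosomal protein genes and of 1 copy of each, 1 point per mouse, by group (x axis). In all 12 mice Rps27rt, Rps6-ps4, Rpl17-ps10, Rps13-ps2, Gm15500 and Gm10288 lie above the gene whose sequence they share.

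Within each line the libraries of set A differed from the others for some members. In both lines 12 of the 75 genes (16%) were lower in both set A mice than in all 4 other mice of the line, against 7.44% of all genes, and 3 (4%) were higher, against 9.56%. Rps15a, a small-subunit protein, was at 158 and 172 scaled FPKM in the set A mice of the exon 7 line, against 250.4 to 265 in the other mice of that line. In the exon 6-7 line it was at 311 and 350.3 against 444 to 515. Rpl13a was at 168 and 171 against 245 to 264 in the exon 7 line, and at 529 and 619 against 759.8 to 961 in the exon 6-7 line. Rpl21 was at 59.0 and 68.5 against 94.9 to 97.9, and at 182 and 210.5 against 277 to 325.

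Rps3 and Rpl15 went the other way. Rps3, a small-subunit protein at the mRNA entry channel, was at 155 in both set A mice of the exon 7 line, against 103 to 114 in the others, and at 281 and 313 against 241 to 274 in the exon 6-7 line. Rpl15 was at 33.0 and 33.6 against 18.6 to 21.1, and at 45.4 and 46.8 against 32.1 to 39.6. In the exon 7 line alone 29 genes were lower in set A, against 25.0% of all genes, and 12 higher, against 24.7%; in the exon 6-7 line alone 14 were lower, against 13.7%, and 8 higher, against 16.8%. Each group has 1 set A mouse, so the sets weigh equally on knockout and wild-type means. Set A was described from a gene that is not ribosomal, and the labels give no reason for it.

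**Figure D5:**
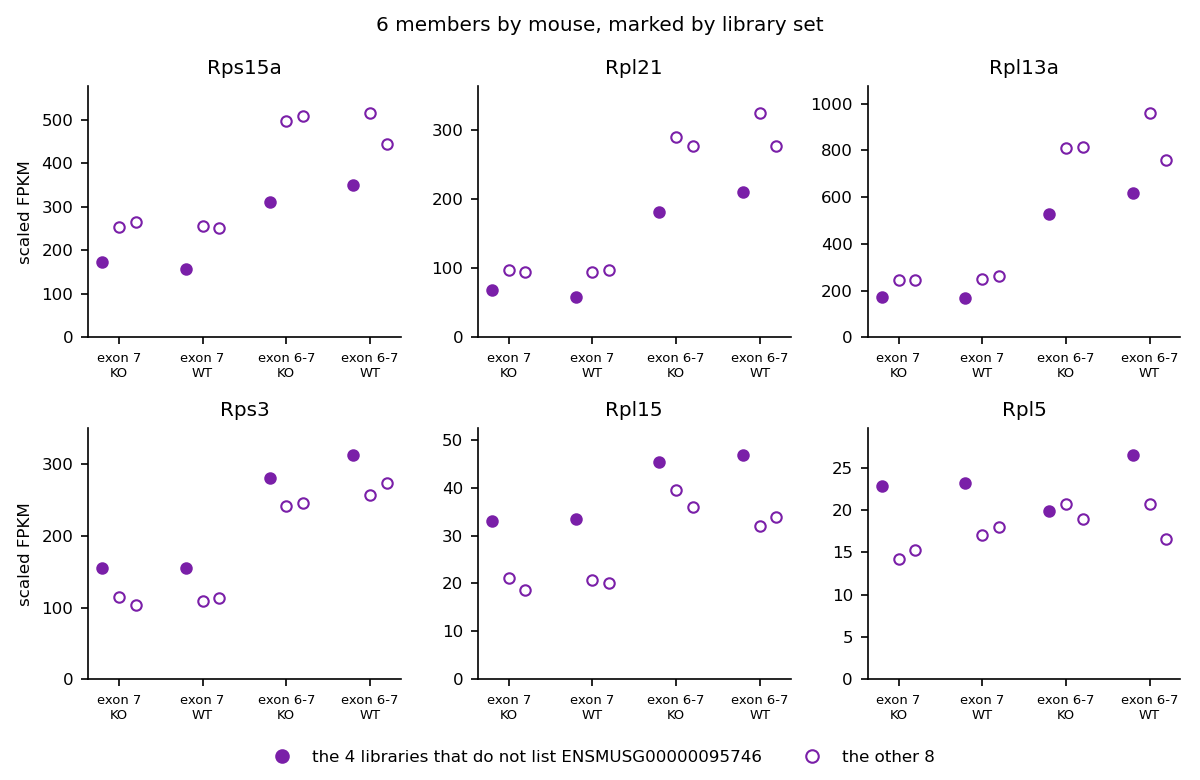
Scaled FPKM (y axis) of 6 ribosomal protein genes in each mouse, by group (x axis), with filled points for the 4 set A libraries and open points for the other 8. In every group the filled point is the lowest for Rps15a, Rpl21 and Rpl13a and the highest for Rps3 and Rpl15; Rpl5 does so in 3 of the 4 groups.

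Lists of other genes of the ribosome's pathway were counted against the 67.1% of all genes called between the wild types, 33.1% lower and 34.0% higher. Of 23 tested genes with TOP mRNAs that are not among the 76, 17 were called lower and 2 higher in exon 7 than in exon 6-7 wild types, with a median log2 fold change of −0.67. Fau was at 4.15 ± 0.532 scaled FPKM in exon 7 wild types, against 17.1 ± 4.33 in exon 6-7 wild types (log2 fold change −1.79, SE 0.170), and Eef1b2, a subunit of an elongation factor, at 141 ± 17.3 against 386 ± 48.3 (−1.44, SE 0.150; SD, n = 3 each). Eif3f, of an initiation factor, was at −1.28. Of 9 tested paralogues and copies that the rule leaves out, 8 were called lower and 1 higher (median −1.54). The 1 called higher was Rps3a1, while Rps3a2 and Rps3a3, which share its sequence, were called lower. These 3 summed to 134, 153 and 155 in exon 7 wild types, against 220.5, 221 and 239 in exon 6-7 wild types. Of 38 ribosome biogenesis genes 18 were called lower and 7 higher (median −0.23). With both directions together the share called was close to that of all genes, but more of these genes were called lower than higher. Among them Mrto4, an assembly factor of the stalk (−1.58), Nhp2, of box H/ACA particles (−1.33), and Bop1, of large-subunit assembly (−0.85), had the smallest p.

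Of 24 initiation factor genes 11 were called lower and 6 higher (median −0.17), among them Eif6, which keeps the subunits apart (−1.52), Eif5a (−1.12) and Eif4h (−1.02). Of 16 genes of TOR signalling 3 were called lower and 8 higher (median 0.28). For both lists the share called, with both directions together, was close to that of all genes. More initiation factor genes were called lower than higher, and more TOR signalling genes higher than lower. Eif4ebp2, a repressor of cap-dependent initiation, was at 14.5 ± 2.64 against 2.78 ± 0.933 (log2 fold change 2.05, SE 0.169), Tsc1, an inhibitor of TOR, at 16.3 ± 0.840 against 7.29 ± 0.343 (1.06, SE 0.0910; 0.13 and not past the threshold after correction for length and GC content), and Rps6kb1, an S6 kinase, at 20.4 ± 1.52 against 9.12 ± 0.718 (1.08, SE 0.119; SD, n = 3 each). For the knockouts within the lines no gene on the lists of TOP mRNAs, biogenesis, initiation factors and TOR signalling passed. Of the paralogues and copies, Rps3a1 passed in the exon 6-7 line and is described below. The medians in the exon 6-7 line were −0.07 for the TOP genes, −0.03 for biogenesis, −0.02 for initiation factors and 0.06 for TOR signalling. In the exon 7 line they were 0.04, 0.02, 0.00 and −0.04.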

How the data were processed

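Hippocampal poly(A) RNA of 12 mice was sequenced, and the authors deposited FPKM values per gene, with Ensembl release 74 identifiers per the file headers. GSNAP, Cufflinks, CASAVA and build mm10 are named, per the submitters' processing notes; how strand and reads of several origins were treated is not stated there. The files list only genes above 0, so unlisted genes were given 0. Symbols and positions are from GENCODE M21 (GRCm38), which matched 24077 of 24590 identifiers, and promoters from RefSeq on GRCm38.p6.

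FPKM values were scaled by the median of ratios over 12511 genes. Small RNA genes (110) and genes with a mean under 1 were left out. limma 3.58.1 in R 4.3.3 was fitted to log2(scaled FPKM + 1) of all 12 mice with 4 group means, an intensity trend, 8 residual degrees of freedom and two-sided tests, adjusted by Benjamini-Hochberg over 14212 genes; fold changes on this scale understate those of low genes. Read depth is unknown, so no counting error was attached to a value. The 3 mice of a group are separate animals. Named in each comparison were up to 10 genes of smallest p past the threshold per direction (the 5 of smallest p where fewer than 5 passed), a fixed panel of 14, and the 3 highest and 3 lowest by level. The genes, lists and comparisons were chosen with earlier results of these data known. Other scalings, filters, pseudocounts, copy sums, library sets and leaving out each mouse were tried. Python 3.11.15 with pandas 2.3.3, numpy 2.4.6 and matplotlib 3.10.9 made the summaries and plots. A few genes that the naming rule picks are not reported here; they are part of the counts and medians.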

Additional observations from a re-analysis of the deposited data

Results flagged for a closer look

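The knockout effect on Rps3a1, a neighbour of the family that the rule leaves out, differed between the lines. The exon 6-7 effect minus the exon 7 effect was 5.16 on the log2 scale (SE 0.179, limma adjusted p = 3.18e-08). Rps3a1 was at 105, 113 and 122 scaled FPKM in exon 6-7 knockouts, against 1.71, 2.66 and 2.85 in their wild types, and at 112, 123 and 125 in exon 7 knockouts, against 116, 128 and 136 in theirs. Copies with shared sequence had values the other way in the exon 6-7 line: Rps3a3 was at 98.3 ± 5.59 in knockouts, against 185 ± 11.2 in wild types, and Rps3a2 at 24.8 ± 3.46 against 39.4 ± 1.05 (SD, n = 3 each). The 3 genes summed came to 218, 243 and 248 in knockouts, against 220.5, 221 and 239 in wild types, and these groups overlap. How reads were shared among the 3 is not stated, so the value for Rps3a1 alone does not show a change of the family.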

How the results depend on the processing

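No paired analysis was possible because each mouse number occurs once. The knockout comparisons called none of the 75 genes under any alternative run, except that with paralogues and Rps3a copies added 1 gene, Rps3a1, was called in the exon 6-7 line, in the difference and in the mean. Leaving out each mouse gave medians of −0.15 to −0.07 in the exon 6-7 line, 0.01 to 0.05 in the exon 7 line, −0.18 to −0.13 for the difference, −0.06 to −0.02 for the mean, −1.19 to −1.13 between the wild types (70 to 73 called) and −1.10 to −1.01 between the knockouts (69 to 71 called). The median was −0.032 in the exon 6-7 line with quantile normalization and −0.22 for the difference within set A; that of the mean was −0.00051 with quantile normalization and 0.0054 rescaled to TPM (all genes 0.045). Between the wild types it was −1.32 with FPKM as deposited (all genes −0.14), −0.92 with quantile normalization, −1.05 rescaled to TPM (all genes 0.13), −0.80 without length and GC trends, −1.26 with -ps copies summed, −1.30 with sequence-sharing copies and −1.42 over the 17 genes under 20% of windows (17 called). Between the knockouts these were −1.17, −0.78, −0.90, −0.70, −1.17, −1.20 and −1.31 (17 called). Signs reversed for Rpl5 between wild types (0.026 with TPM; −0.28 to 0.044 leaving out mice), Rpl29 between knockouts (−0.00094 with array weights, −1.19 without set A; −1.25 to 2.07 leaving out mice) and in the exon 6-7 line (0.82 without set A; −2.80 to 0.53 leaving out mice), and Rpl27 (−0.022) in that line without set A. In the same line Rps20 was at −0.058 without trends (−0.059 to 0.11 leaving out mice), Rps13 at −0.055 with either copy sum (−0.020 to 0.17 leaving out mice) and Rps27a at −0.12 with copies. Rpl10 in the mean was at −0.016 without set A (−0.032 to 0.10 leaving out mice), and Rpl5 in the exon 7 line at 0.050 with copies. In the difference Rps29 was at −0.052, Rpl27a at −0.036 and Rpl12 at −0.17 with copies. Leaving out mice gave −0.064 to 0.25 for Rpl12, −0.074 to 0.31 for Rps23 and −0.12 to 1.11 for Rpl30 in the difference, and −1.18 to 0.053 for Rpl30 in the exon 7 line. Within set A, with no test, signs also turned for Rps13 in the exon 6-7 line (−0.21), Rps28 (−0.070) and Rpl30 (0.12) in the exon 7 line, and Rpl30 in the difference (−0.31). The causes were not tested. Rpl17 between the wild types passed with FPKM as deposited, quantile normalization, array weights, a term for the set, copy sums, or without mouse WT628 or WT993. Unknown read depth leaves the precision of low levels unstated.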
